A study of Caenorhabditis elegans with 4 samples.

Results

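The 4 muscle actin genes act-1, act-2, act-3 and act-4 of Caenorhabditis elegans were followed in sorted embryonic muscle. The members are the rows of that name in the deposited count table, 4 of 14463 genes. Muscle cells came from wild-type embryos carrying lucEx1207(myo-3p::YFP) (strain MLC2232) and from embryos that carried the same transgene together with mir-1(luc108) I (strain MLC2277), with 2 libraries per genotype. mir-1(luc108) is a deletion of the mir-1 hairpin, so that the muscle microRNA miR-1 is not made. Wild type is the control throughout. In both strains the promoter of myo-3, a muscle myosin gene, drove a yellow fluorescent protein from an extrachromosomal array, and the embryos were dissociated at about the 1.5-fold stage, when body-wall muscle is assembling its sarcomeres. The growth temperature is recorded as 20 °C for all 4 libraries, and the study's text has the embryos kept warmer before dissociation. For each library 5000 YFP-positive cells were sorted. QuantSeq libraries, which read the 3′ end of each polyadenylated mRNA, were made with unique molecular identifiers (UMIs) so that copies made in amplification count once. The labels name each library as a separate sample and do not say whether the 2 of a genotype came from separate cultures; the study's text calls them biological duplicates.

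Actin monomers polymerize into the thin filament, along which myosin of the thick filament pulls, and tropomyosin and the troponin complex lie on the filament and switch it on with calcium. C. elegans makes its muscle thin filaments from several actin genes with nearly the same protein product. Those genes are also used outside muscle, and act-2 has a known role in the actin cortex of the early embryo. A further gene, act-5, encodes the actin of intestinal microvilli and is not a muscle gene.

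In the Ensembl annotation of WBcel235, the build to which the authors mapped, act-1, act-2 and act-3 lie side by side within 10726 bp of chromosome V. act-1 (WBGene00000063) runs on the plus strand of chromosome V from 11081052 to 11082415. act-2 (WBGene00000064) runs on the minus strand from 11076777 to 11078154, and act-3 (WBGene00000065) on the minus strand from 11071690 to 11074498. Gaps of 2278 bp between act-3 and act-2 and of 2897 bp between act-2 and act-1 separate them, and act-1 points away from the other 2. act-4 (WBGene00000066) stands alone on the plus strand of the X chromosome from 4960621 to 4964413. The longest coding sequence has 1128 bp in each of the 4 genes, a protein of 376 residues, and in each the last exon holds 160 bp of coding sequence with the stop codon.

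The annotated 3′UTRs differ in length far more than the coding parts do, and a 3′ tag is read near the end of the mRNA that they form. Where the tags fell within these genes was not examined. Of the last exon of act-1, 272 bp long, all beyond those 160 bp is 3′UTR. The 3′UTR has 123 bp in act-2, 322 bp in act-3 and 429 bp in act-4. A read that starts a given distance from the poly(A) tail thus reaches shared coding sequence sooner in act-1 and act-2 than in act-3 and act-4. How reads that fit several actin genes were treated is not given in the sources used here. Each single-gene value below is therefore uncertain, and the summed count of the 4 genes is given beside it. The sum does not depend on how such reads were divided among the 4, but it would miss reads that were discarded. Of 4 annotated genes that overlap a member, 3 are antisense noncoding RNAs on act-1 and act-3, which were not analysed here. The other, M03F4.6, overlaps act-4 by 1 bp on the other strand and had 8 and 12 UMI counts in the controls and 24 and 19 in mir-1(luc108).

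**Figure D1:**
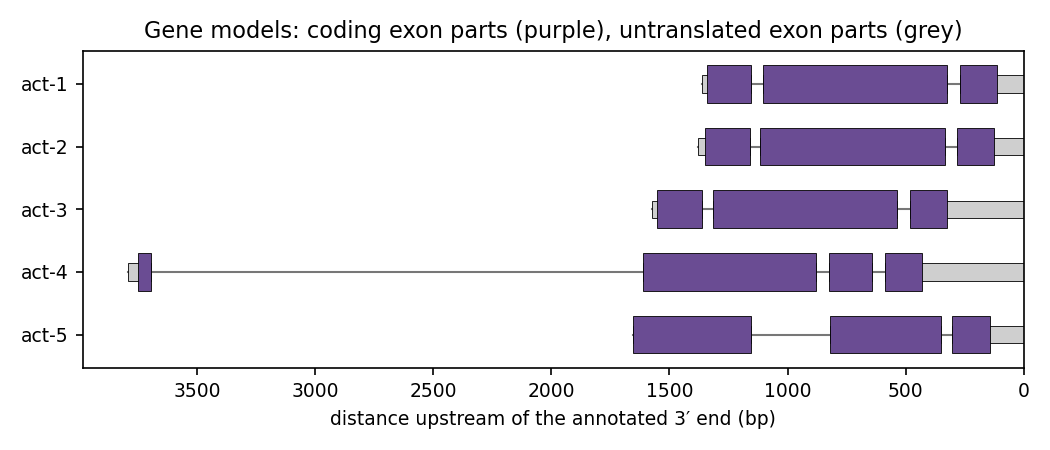
Annotated gene models of the 4 muscle actin genes and act-5, drawn to scale and aligned at the 3′ end (x axis, distance upstream of the annotated 3′ end in bp; tall purple boxes, coding parts of exons; low grey boxes, untranslated parts). For each gene the transcript with the longest 3′UTR is drawn. The grey box at the right is shortest in act-1 and longest, at 429 bp, in act-4, while the last coding part has 160 bp with the stop codon in every gene.

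The libraries held between 245336 and 453341 UMI counts, and 5111 genes passed the filter on low counts and were tested, all 4 actin genes among them. Levels are given as normalized CPM, that is, UMI counts per 1000000 counts on all tested genes after scaling with edgeR's TMM factors. The defining genes of the labelled cell type were present: all 10 body-wall muscle markers on the list, unc-54, myo-3 and hlh-1 among them, passed the filter, and unc-54 was among the 9 most abundant genes in every library. Markers of other tissues were also present. The 7 hypodermal genes summed to 1793 to 2011 CPM, above the level of act-1 or act-3 in any library, and most of that came from the cuticle collagen gene sqt-3, with 347 to 604 UMI counts. Summed levels were 265 to 520 CPM for 7 pharyngeal muscle genes, 141 to 441 CPM for 7 intestinal genes, 376 to 582 CPM for 7 neuronal genes and 7.68 to 28.4 CPM for 4 germline genes. The intestinal regulator elt-2 had 2 to 8 UMI counts per library and the neuronal gene rgef-1 had 0 to 2. Other genes of these lists were higher, with 6 to 92 for the intestinal gene asp-1 and 34 to 113 for the neuronal gene unc-119.

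act-4 supplied most of the actin transcripts in every library. Of the UMI counts on the 4 genes, it took 68.2% and 59.9% in the control libraries against 65.7% and 64.3% in the mir-1(luc108) libraries. act-1 and act-3 took between 14.1 and 21.8% and between 14.6 and 15.7%, and act-2 never more than 3.57%. Counting error in these shares was small, with an exact (Clopper-Pearson) 95% interval from 66.0 to 70.3% for act-4 in the first wild-type library and from 2.44 to 4.09% for act-2 in the same library. These intervals, and all intervals on counts below, cover counting error only.

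The order of the levels was act-4, then act-1 and act-3 together, then act-2. act-4 had 4.84, 2.75, 3.95 and 3.93 times the UMI counts of act-1 in the first and second wild-type and the first and second mir-1(luc108) library. It was at least 3.97 times above act-3 in each of the 4 libraries. act-1 and act-3, the neighbours in the middle of that order, could not be ranked, since their ratio was 0.967 in the first wild-type library and 1.44 in the second, against 1.12 and 1.04 in the mir-1(luc108) libraries. act-2 was below both in every library, by a factor of 4.42 to 6.72 against act-1 and of 4.41 to 5.29 against act-3. These are counts of 3′ tags, 1 per captured mRNA, so they were not divided by transcript length. If reads that fit several actin genes were discarded, act-1 and act-2, with the shortest 3′UTRs, could be undercounted most. The effect of this on the order was not tested.

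Among all genes of a library, act-4 ranked between place 14 and place 36 by abundance. act-1 ranked between 117 and 166, act-3 between 147 and 178, and act-2 between 644 and 959. The 4 genes together made up 0.767 and 0.653% of all UMI counts in the control libraries against 0.598 and 0.563% in the mir-1(luc108) libraries. The exact 95% intervals of these shares were 0.733 to 0.802% and 0.629 to 0.678% in wild type, and 0.576 to 0.621% and 0.538 to 0.588% in mir-1(luc108), so that both mutant libraries lay below both wild-type libraries beyond counting error.

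**Figure D2:**
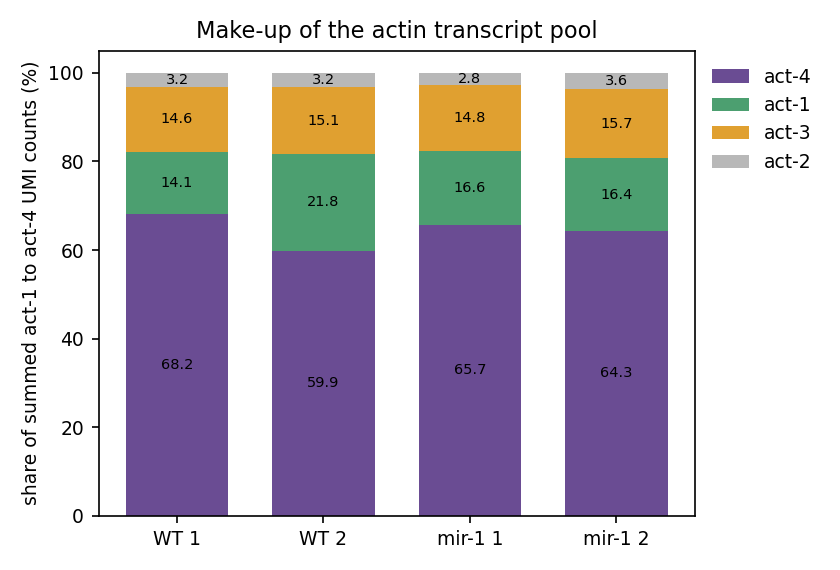
Make-up of the actin transcript pool in each library (y axis, share of the summed act-1 to act-4 UMI counts in %; one bar per library, WT for wild type and mir-1 for mir-1(luc108), with the share printed in each segment). act-4 is the largest segment in all 4 bars, and the second wild-type library has the largest act-1 segment, 21.8%.

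All 4 actin genes had lower means in mir-1(luc108) than in wild-type muscle cells, with differences from −24.6% for act-1 to −16.5% for act-3, and none passed the test across all genes. For act-4, the UMI counts were 1282 and 1663 in the controls and 1783 and 1242 in mir-1(luc108), in libraries of unequal depth. Its normalized level was 5473 and 4259 CPM in the control libraries against 4051 and 3921 CPM in the mir-1(luc108) libraries. Both mutant libraries were thus below both wild-type libraries, but the lower wild-type library lay much closer to the mutant libraries than to its own replicate. The means were 4866 ± 858 CPM (SD, n = 2) and 3986 ± 92.3 CPM (SD, n = 2), and the fitted log2 fold change was −0.29 (standard error 0.21, 95% interval −0.73 to 0.16, Benjamini-Hochberg adjusted p = 0.804 in the quasi-likelihood test of edgeR).

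act-1 gave the largest of the 4 estimates in size and had the widest relative spread between the wild-type libraries. Its UMI counts were 265 and 605 in the controls and 451 and 316 in mir-1(luc108), or 1131 and 1550 CPM against 1025 and 998 CPM. Here it was the second wild-type library that stood high, while the first lay near the mutant libraries. The means were 1340 ± 296 CPM (SD, n = 2) in the controls and 1011 ± 19.2 CPM (SD, n = 2) in mir-1(luc108), and the log2 fold change was −0.41 (standard error 0.20, 95% interval −0.84 to 0.011, edgeR adjusted p = 0.620, unadjusted p = 0.0554).

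act-3 was the most even member between the wild-type libraries, with a coefficient of variation of 6.09%. It had 274 and 419 UMI counts in the controls and 402 and 304 in mir-1(luc108), which corresponds to 1170 and 1073 CPM against 913 and 960 CPM. The groups did not overlap. Wild type averaged 1121 ± 68.3 CPM (SD, n = 2) and mir-1(luc108) 937 ± 32.7 CPM (SD, n = 2), and the fitted log2 fold change was −0.26 (standard error 0.19, 95% interval −0.66 to 0.14, edgeR adjusted p = 0.796).

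act-2, the least abundant member, had 60 and 90 UMI counts in the controls and 76 and 69 in mir-1(luc108). With so few counts, counting error alone was 10.5 to 12.9% per library, beside a coefficient of variation of 7.45% between the wild-type and 16.3% between the mutant libraries. Its levels were 256 and 231 CPM in the controls and 173 and 218 CPM in mir-1(luc108), so that the groups nearly touched. The means of 243 ± 18.1 CPM (SD, n = 2) and 195 ± 31.9 CPM (SD, n = 2) went with a fitted log2 fold change of −0.32 (standard error 0.23, 95% interval −0.80 to 0.16, edgeR adjusted p = 0.784).

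Taking the 4 genes as 1, the actin count was 1881 and 2777 UMI counts in the controls and 2712 and 1931 in mir-1(luc108). The levels were 8030 and 7113 CPM in the controls and 6162 and 6096 CPM in mir-1(luc108). The groups did not overlap. The coefficient of variation was 0.765% between the mutant libraries. That is below the counting error of 1.90 to 2.31% per library, so it understates their spread. Summed actin was 7572 ± 649 CPM (SD, n = 2) in the controls and 6129 ± 46.9 CPM (SD, n = 2) in mir-1(luc108), and the fitted log2 fold change was −0.30 (standard error 0.21, edgeR adjusted p = 0.783). Its 95% interval, from −0.75 to 0.14, runs from 0.595 to 1.10 times the wild-type level. A change of either sign within those limits cannot be told from none here.

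**Figure D3:**
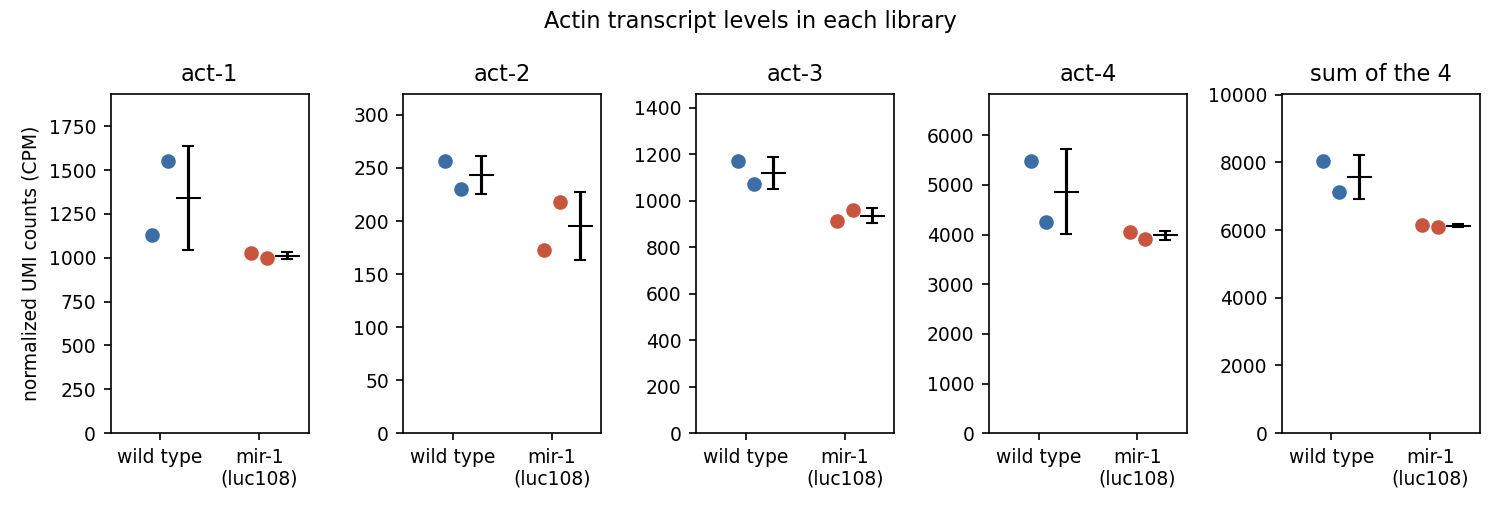
Level of each actin gene and of their sum in the 4 libraries (y axis, normalized UMI counts in CPM, from 0 and on a separate scale for each panel; blue points, wild type; red points, mir-1(luc108); black bars, mean ± SD, n = 2). In every panel both red points lie below both blue points, and the wild-type points of act-1 and act-4 are spread in opposite directions.

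How often such a picture arises among all genes bears on how it is read. Of the 5111 genes tested, 18.9% had both mir-1(luc108) libraries below both wild-type libraries, as 4 of the 4 actin genes did. The 4 are not independent, since they share near-identical coding sequence and the same 4 libraries. At an adjusted p below 0.05, edgeR called 0 of the 4 actin genes and 0.0587% of all genes, 3 in number, or 0.0391% counting lower genes alone. At an unadjusted p below 0.05 it called 0 of the 4 and 8.20% of all genes, 4.58% on the lower side. Under other settings act-1 did pass that unadjusted limit, with an edgeR p of 0.0458 with upper quartile factors, 0.0488 with at least 10 counts in every library and 0.0416 without the first wild-type library, and DESeq2 gave it 0.0732. A negative log2 fold change was found for 4 of the 4 and for 49.7% of all genes. The median log2 fold change of the 4 was −0.30, beside 0.0031 over all genes tested. The edgeR p-values and intervals rest on a spread between these libraries that is pooled in large part over genes (18.6 degrees of freedom). They therefore do not measure the scatter of the actin values alone. With 2 libraries per genotype, no exact permutation of the genotype labels can give a p below 0.333.

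The estimates of act-1 and act-4 rested on single wild-type libraries, and that of act-2 moved most with the mutant libraries. Without the first wild-type library, the log2 fold change of act-4 was −0.086 and that of act-1 was −0.61. Without the second, they were −0.46 and −0.17. Leaving out the first mir-1(luc108) library moved act-2 to −0.17 and leaving out the second moved it to −0.49. Those of act-3 stayed between −0.33 and −0.19 and those of the sum between −0.40 and −0.21. No sign changed in any of these fits. When CPM was scaled by library totals alone, an alternative chosen after seeing the data, the libraries of act-4 overlapped between genotypes, at 3933 CPM in the first mir-1(luc108) library and 3913 CPM in the second wild-type library, and those of the other 3 members still did not.

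**Figure D4:**
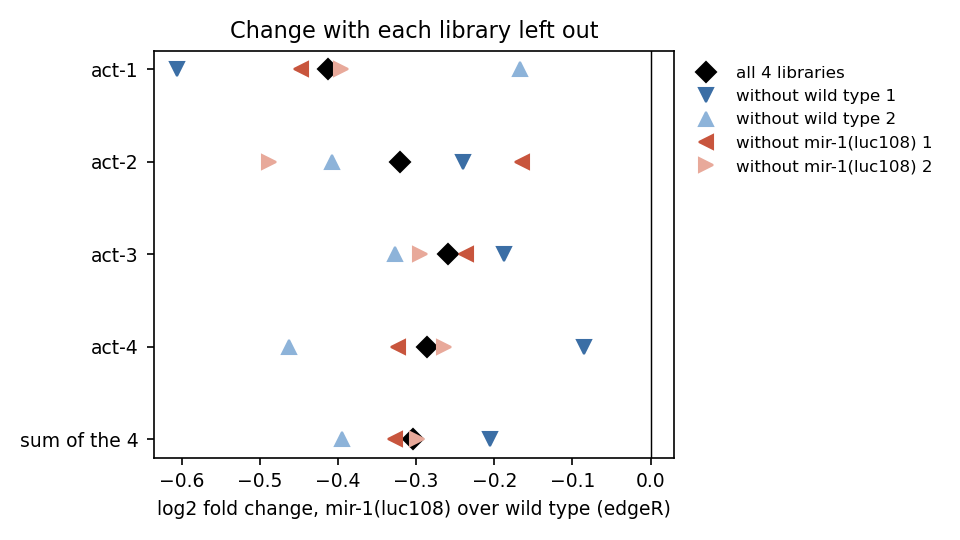
Log2 fold change of mir-1(luc108) over wild type for each actin gene and their sum with all 4 libraries (black diamonds) and with each library left out (triangles; x axis, edgeR estimate; vertical line, no change). The estimates of act-1 and act-4 move in opposite directions when either wild-type library is left out, to −0.17 and −0.086 at the weakest, while act-3 and the sum move less.

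The wild-type libraries thus differed from each other in the make-up of the actin pool. act-1 held 14.1% of it in the first (exact 95% interval 12.5 to 15.7%) and 21.8% in the second (20.3 to 23.4%), and act-4 held 68.2% (66.0 to 70.3%) in the first and 59.9% (58.0 to 61.7%) in the second. Neither pair of intervals overlapped. The mir-1(luc108) libraries lay between them, with act-1 at 16.6% (15.2 to 18.1%) and 16.4% (14.7 to 18.1%). act-3 and act-2 had shares whose intervals overlapped in all 4 libraries. Between replicates, the coefficient of variation in wild type was 22.1% for act-1 and 17.6% for act-4, against counting errors of at most 6.14% and 2.84% per library, and was 8.57% for the sum.

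Pharyngeal contractile genes were highest in the same library, whereas the pharyngeal regulators were not. The 7 pharyngeal markers summed to 520 CPM in the second wild-type library, against 265 CPM in the first and 302 and 284 CPM in mir-1(luc108). The pharyngeal myosin gene myo-2 had 13 UMI counts in the second wild-type library, 0 in the first, and 11 and 2 in mir-1(luc108). The pharyngeal troponin gene tnc-2 had 36 counts there, 6 in the first wild-type library, and 13 and 7 in mir-1(luc108). Of the 7 markers, the 5 contractile genes myo-1, myo-2, tnt-4, tnc-2 and tni-4 were highest in the second wild-type library. The regulator ceh-22 was lowest there, with 7 UMI counts against 18 in the first wild-type library and 13 and 11 in mir-1(luc108). The regulator pha-4, with 20 and 40 in the controls and 40 and 35 in mir-1(luc108), did not set that library apart. The intestinal sum was also highest in this library. The 7 intestinal markers summed to 441 CPM there, against 141 CPM in the first wild-type library and 309 and 316 CPM in mir-1(luc108). The largest part of it was asp-1, with 92 UMI counts there, 6 in the first wild-type library, and 34 and 34 in mir-1(luc108). Of the other intestinal markers, act-5, elt-2, ges-1 and cpr-6 were not highest there. The hypodermal and neuronal sums were not highest there. The part of pharyngeal or other cells in the act-1 level was not tested.

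Between genotypes the make-up of the pool did not differ beyond the spread of the libraries. The mean share of act-4 was 64.0 ± 5.85% (SD, n = 2) in the controls and 65.0 ± 1.01% (SD, n = 2) in mir-1(luc108), a difference of 1.01 percentage points. For act-1 the difference was −1.44 points, for act-3 0.456 points and for act-2 −0.028 points. The exact two-sided permutation test over the 4 libraries gave p = 1 for act-1, act-2 and act-4 and p = 0.667 for act-3. The sum of the 3 genes on chromosome V had a fitted log2 fold change of −0.34 (standard error 0.19, edgeR adjusted p = 0.723), close to the −0.29 of act-4 on the X chromosome. act-4 had 2.14, 1.49, 1.92 and 1.80 times the counts of those 3 genes together in the first and second wild-type and the first and second mir-1(luc108) library, and the mutant ratios lay inside the wild-type range.

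act-5 was scarce and had an estimate of the opposite sign. This intestinal actin gene lies on chromosome III from 13604412 to 13606066, with a 3′UTR of 142 bp, and had 5 and 22 UMI counts in the controls and 28 and 26 in mir-1(luc108). Its levels of 21.3 and 56.3 CPM in the controls and 63.6 and 82.1 CPM in mir-1(luc108) were far below those of any muscle actin gene, act-2 included. Its log2 fold change was 0.76 (standard error 0.40, 95% interval −0.072 to 1.60, edgeR adjusted p = 0.674). The 7 intestinal markers, act-5 among them, summed to 141 and 441 CPM in the controls and 309 and 316 CPM in mir-1(luc108). The library lowest in act-5 was thus also lowest in this sum. Both mir-1(luc108) libraries were above the second wild-type library in act-5 and below it in the sum. The marker asp-1 alone had 92 UMI counts in that wild-type library, against 34 and 34 in mir-1(luc108). Of the 4 intestinal markers tested, act-5 among them, 3 had a log2 fold change above 0 and 1 below. Their median was 0.30, beside 0.0031 over all genes tested. The part of intestinal RNA in the act-5 difference was not tested.

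The ratio of actin to body-wall myosin mRNA was higher in each mutant library than in either control library, while neither the actin nor the myosin difference passed the test across all genes. unc-54, the major body-wall myosin heavy chain, was at 9664 ± 504 CPM (SD, n = 2) in the controls and 6804 ± 88.1 CPM (SD, n = 2) in mir-1(luc108), and the log2 fold change was −0.51 (standard error 0.22, edgeR adjusted p = 0.557). myo-3, the minor heavy chain of the same filaments, had 1119 and 984 CPM in the controls and 829 and 584 CPM in mir-1(luc108), and the fitted log2 fold change was −0.56 (standard error 0.21, edgeR adjusted p = 0.453). Per count of unc-54 and myo-3 together, there were 0.721 and 0.691 counts of summed actin in the control libraries against 0.814 and 0.818 in the mir-1(luc108) libraries. The replicates of each genotype differed by less than the genotypes did, and the exact two-sided permutation test over the 4 libraries gave p = 0.333, the smallest it can give. This ratio is taken within each library and so needs no normalization. It was higher in mir-1(luc108) by 0.21 on the log2 scale, and by 0.18 to 0.24 with each library left out.

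**Figure D5:**
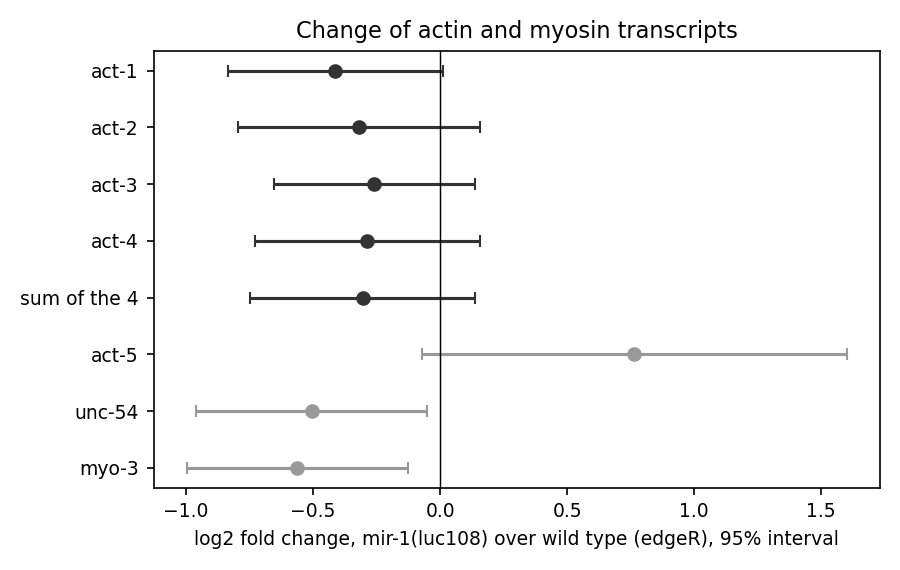
Log2 fold change of mir-1(luc108) over wild type for the 4 actin genes, their sum, the intestinal gene act-5 and the body-wall myosin genes unc-54 and myo-3 (points, edgeR estimate; bars, 95% interval; vertical line, no change). The intervals of the 4 actin genes and their sum all cross 0, that of act-1 by 0.011, and lie largely below it, whereas act-5 lies on the other side at 0.76.

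The body-wall muscle markers had estimates of the same sign as actin. All 10 had a log2 fold change below 0, with a median of −0.52, 0 called and 7 with an unadjusted p below 0.05 from edgeR, and they summed to 16176 and 15247 CPM in the controls and 11272 and 10493 CPM in mir-1(luc108). Over all genes tested, 49.7% had a log2 fold change below 0 and 4.58% were lower at an unadjusted p below 0.05 from edgeR. Per count of the 10 markers there were 0.496 and 0.466 counts of actin in the controls and 0.547 and 0.581 in mir-1(luc108). Without unc-54 and myo-3 among the markers, the ratios were 1.59 and 1.44 against 1.66 and 2.00. A smaller share of body-wall muscle cells in a sort and less muscle mRNA per cell cannot be told apart in these bulk libraries, and the part of either in the actin levels was not tested.

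Most other thin filament genes also had negative estimates. Of 26 genes on the list for tropomyosin, troponins, calponin-like proteins, capping proteins and regulators of filament turnover, all were tested, 23 had a log2 fold change below 0 and 3 above, and 0 were called in either direction. Both mir-1(luc108) libraries were below both wild-type libraries for 14 of them and above for 1. The unadjusted p from edgeR was below 0.05 for 7 of the lower genes and 1 of the higher. The list shares tnt-4, tnc-2 and tni-4 with the pharyngeal markers and unc-27 with the body-wall markers, so its counts are not separate evidence. tnc-2, whose groups overlapped, and unc-27 are among those 7. Over all genes tested, 49.7% had a log2 fold change below 0, 18.9% were parted downward and 19.5% upward, and 4.58% were lower at an unadjusted p below 0.05. For the list, the median log2 fold change was −0.35. The 3 with a positive estimate, named after their values were seen, were the profilin genes pfn-1 and pfn-2, whose products bind actin monomers, and the troponin I gene tni-3.

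Among the 4 most abundant of these genes, the 2 whose estimates were nearest to that of summed actin were pat-10 and cpn-3. pat-10, which encodes body-wall troponin C, had 5721 and 4984 CPM in the controls and 4767 and 4246 CPM in mir-1(luc108), and the log2 fold change was −0.25. Summed actin had 1.40 and 1.43 counts per pat-10 count in the controls and 1.29 and 1.44 in mir-1(luc108), and the genotypes overlapped. cpn-3, a calponin family gene, was at 3522 and 2905 CPM against 2763 and 2399 CPM, a log2 fold change of −0.31, and its ratio to actin overlapped as well.

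tni-1 and tnt-3, for troponin I and troponin T, had larger negative estimates, which did not pass the test. tni-1 had 3292 and 3645 CPM in the controls and 2431 and 2080 CPM in mir-1(luc108), and the fitted log2 fold change was −0.62 (standard error 0.20, edgeR adjusted p = 0.311). The groups stood well apart, and actin counts per tni-1 count were 2.44 and 1.95 in the controls against 2.53 and 2.93 in mir-1(luc108) (exact permutation p = 0.333, the smallest it can give). tnt-3 was at 1392 and 1606 CPM in the controls and 1163 and 909 CPM in mir-1(luc108), and the fitted log2 fold change was −0.53 (standard error 0.20, edgeR adjusted p = 0.464). Its ratio to actin overlapped between the genotypes, with an exact permutation p of 0.667.

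Thick filament and titin-like genes, taken as a list of 11, had 10 log2 fold changes below 0 and a median of −0.51, with 0 called and 7 at an unadjusted p below 0.05 from edgeR. The corresponding medians were −0.30 for the 4 actin genes and −0.35 for the thin filament list. Of all genes tested, 49.7% had a log2 fold change below 0 and 4.58% were lower at an unadjusted p below 0.05 from edgeR. The list shares 5 genes, unc-54, myo-3, unc-15, unc-22 and unc-89, with the body-wall markers, so their counts are not separate evidence. The difference between these medians was not tested. The gene of the list with an estimate above 0, named after its value was seen, was the myosin light chain gene mlc-4. Its log2 fold change was 0.20 (edgeR adjusted p = 0.887).

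The genes whose pattern over the 4 libraries was most like that of summed actin were sought among 1720 other genes with a mean of at least 100 CPM. Likeness was measured as the root mean square difference of the deviations from each gene's own mean, on the log2(CPM + 1) scale. The 5 nearest were chd-3 at 0.023, maco-1 at 0.026, ubql-1 at 0.028, F44E2.6 at 0.034 and emb-9 at 0.035. emb-9, which encodes a type IV collagen chain of basement membranes, had 1866 and 1601 CPM in the controls and 1375 and 1323 CPM in mir-1(luc108). chd-3, which encodes a chromatin remodelling protein, had 282 and 248 CPM against 220 and 208 CPM. With 4 libraries many genes of this number come close to any given pattern, and none of the 5 is on the thin or thick filament lists.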

How the data were processed

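The deposited values are UMI counts per gene. The authors made them with UMI-tools (extraction of the UMIs, and removal of duplicates after mapping), adaptor trimming, STAR on WBcel235 and HTSeq, and did not normalize the deposited counts. Versions, annotation release, strand setting and treatment of multimapped reads are not given in the sources used here. Groups came from the sample titles. The whole table was fitted with edgeR 4.0.16 in R 4.3.3: filterByExpr at a minimum of 10 counts, TMM factors, and the quasi-likelihood test of genotype over 4 libraries, two-sided, with Benjamini-Hochberg adjustment at 0.05. Standard errors are the estimate divided by the square root of F. The summed actin count replaced its 4 rows in a second fit. CPM (counts per 1000000) used the same scaling. Alternatives covered DESeq2 1.42.0, limma 3.58.1 voom, other scaling and filters, a replicate block and leaving out each library. The edgeR fit was tested on simulated counts.

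Members and gene lists were chosen with earlier results of these data known. Named were the 4 actin genes, act-5, unc-54, myo-3, the 4 most abundant thin filament genes, any called one, and the 5 of most like pattern. Markers were given by list. Of these, elt-2, asp-1, ges-1, cpr-6, rgef-1, unc-119, sqt-3 and the pharyngeal genes were named after their values were seen. Ensembl gene names matched all 4 members. Sequences of the genes and of their 3′UTRs were not used here.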

Additional observations from a re-analysis of the deposited data

How the results depend on the processing

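The log2 fold changes of act-1, act-2, act-3, act-4 and their sum stayed below 0 under all 14 alternatives, and no single actin gene reached an adjusted p below 0.05 in any of them. With each library left out in turn they ranged from −0.61 to −0.17 for act-1, −0.49 to −0.17 for act-2, −0.33 to −0.19 for act-3, −0.46 to −0.086 for act-4 and −0.40 to −0.21 for the sum. Library numbers are shared between genotypes, and the labels do not say whether a number marks a shared preparation. The deviations of same-numbered libraries from their genotype means correlated at −0.012 over genes. A single value over all genes cannot decide whether a number pairs libraries, since many genes have low counts and a batch may touch only some. Blocking on that number gave the summed count an edgeR adjusted p of 0.0290 (log2 fold change −0.30), against 0.731 to 1.00 under the other alternatives. With the block, unadjusted edgeR p-values were 0.00385 for act-1, 0.0485 for act-3 and 0.00352 for act-4, with adjusted p-values of 0.123, 0.465 and 0.120. The block raised the calls over all genes from 3 to 87. That count was 5 with DESeq2 size factors, 5 with upper quartile factors, 5 with TMM factors computed without contractile genes, 63 without a filter, 48 with at least 10 counts in every library, 0 with DESeq2 with or without its prior, 1 with limma-voom, and 0 to 66 with each library left out. The median of the thin filament list was −0.21 with DESeq2's prior, which shrinks estimates, and ranged from −0.54 to −0.27 when single libraries were left out. The difference in share between genotypes ranged from −5.29 to 2.41 points for act-1, −0.41 to 0.36 for act-2, −0.0045 to 0.92 for act-3 and −3.12 to 5.15 for act-4 with each library left out. Depth limited act-2 most.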
